A study of Mus musculus with 8 samples.

Results

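The genes described here are 52 E2F targets and cell division genes, taken by symbol from the table of gene counts. All 52 had a row among the 55487 gene identifiers of the table, matched through the GENCODE M21 annotation of the mouse genome build GRCm38. By their roles, 26 were placed with S phase (E2F factors, origin licensing, DNA synthesis, cyclins E, S phase repair and Mybl2) and 26 with mitosis (Foxm1, mitotic cyclins and kinases, spindle checkpoint, chromosomal passenger complex, spindle and kinetochore, Ki-67 and topoisomerase II alpha). RNA was measured in whole hearts of mice by stranded mRNA sequencing, in 4 groups of 2 libraries: WT given saline, WT given isoproterenol, Set7KO given saline and Set7KO given isoproterenol. Set7KO mice lack Set7, a lysine methyltransferase encoded by Setd7, in the whole body and came from crosses of heterozygous animals. Isoproterenol, a beta-adrenergic agonist that loads the heart, was injected under the skin at 60 mg/kg on each of 14 days, and the saline groups had the same schedule. The labels give no age, sex or strain, do not say which part of Setd7 is deleted, and do not say that the 2 libraries of a group come from separate animals, so a p-value here rests on the spread between libraries, which may be technical.

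E2F factors switch on the genes a cell needs to enter S phase. E2f1 and E2f2 activate their targets once cyclin-dependent kinases release them from the retinoblastoma protein, and E2f7 and E2f8 repress the same targets later in the cycle. Mitotic genes are switched on after S phase by complexes that hold B-Myb (Mybl2) and FoxM1, which reach their promoters through the CHR element. Many such promoters also hold a CCAAT box, which is a separate element. Most cardiomyocytes of an adult heart do not divide, and which cells of the whole heart the RNA of these genes came from was not measured. In such bulk samples fewer cells of a type and less RNA per cell cannot be told apart.

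Library totals ran from 27847069 to 51705705 counts, so that 3 counts, used here as the floor of detection, stood for 0.0598 to 0.112 CPM (counts scaled to library size). Setd7 checked the labels: it was at 43.0 to 72.6 CPM in the 4 WT libraries and at 3.79 to 5.70 CPM in the 4 Set7KO libraries. One saline library, Set7KO saline 2, stood apart from its partner: across 17604 genes replicate 2 minus replicate 1 was negatively related to the GC content of the gene (Spearman rho = -0.59, across genes, which are not independent replicates), and rho was -0.41 across 44 of the 52 genes. Its title carries the letter C, like both WT saline titles, where that of its partner carries B. Both WT isoproterenol titles carry D and both Set7KO isoproterenol titles A, so no letter is shared between saline and isoproterenol; the labels do not explain the letters, and whatever they stand for cannot be told apart from treatment. The clock genes Dbp and Arntl differed between the isoproterenol libraries and all saline libraries but WT saline 1. Dbp was at 219 to 469 CPM in the 4 isoproterenol libraries and at 46.8 to 58.3 CPM in 3 of the 4 saline libraries, while WT saline 1, at 378 CPM, was among the isoproterenol values (log2 fold change over both genotypes 1.53, SE 0.52, unadjusted p = 0.0173). Within WT the log2 fold change of Dbp was 0.12 (SE 0.72, unadjusted p = 0.875). Arntl, which cycles against Dbp, was lower on average after isoproterenol (-2.44, SE 0.77, unadjusted p = 0.0128, edgeR adjusted p = 0.361). Its level in WT saline 1, 0.896 CPM, was nonetheless below all 4 isoproterenol libraries (1.13 to 2.54 CPM).

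Most mitotic genes, from Cdk1 to Mki67, were lower in isoproterenol-treated than in saline-treated hearts, as were a few S phase genes such as E2f2, Uhrf1 and Mcm5. Of 44 genes that passed the filter on low counts (21 S phase and 23 mitotic), 25 were lower and 0 higher at an unadjusted p under 0.05 when isoproterenol was compared with saline over both genotypes. Over all 17636 genes tested, 4.9% were lower and 4.5% higher at that level. By class, 18 of 23 mitotic and 7 of 21 S phase genes were lower. A gene could pass the filter through its saline libraries alone, and could then hardly come out higher. Melk, Ccna2 and Ccnb1, among others, passed in this way, with no more than 12 counts in any isoproterenol library. The median log2 fold change was -1.55 for the mitotic genes, -0.40 for the S phase genes and 0.02 for all genes tested. No gene of the 52 passed an adjusted p of 0.05 in edgeR's quasi-likelihood test with Benjamini-Hochberg adjustment, which 0.051% of all genes did; the lowest adjusted p was 0.0859 (E2f2), and limma-voom also passed 0. DESeq2, an alternative fit, passed 11 of the 44, beside 1.42% of all genes (E2f2, Mcm5, Uhrf1, Foxm1, Melk, Cdc20, Ube2c, Aurkb, Prc1, Mki67 and Top2a), all lower. With the clock genes added to the model (the log2 ratio of Dbp to Arntl, chosen after the data were seen) 11 genes were lower at an unadjusted p under 0.05, beside 3.65% of all genes. The medians in that model were -0.97 (mitotic) and -0.20 (S phase). Leaving out 1 library at a time gave mitotic medians of -1.84 (without Set7KO saline 2) to -1.29 (without WT saline 2) and S phase medians of -0.54 to -0.23. The count of genes lower at an unadjusted p under 0.05 changed with the library left out, and so did the share of all genes. The S phase median was -0.23 without Set7KO saline 1. Without Set7KO saline 2, Uhrf1 and Foxm1 passed the adjusted threshold, beside 0.231% of all genes; 0 of the 52 passed when any other library was left out.

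**Figure D1:**
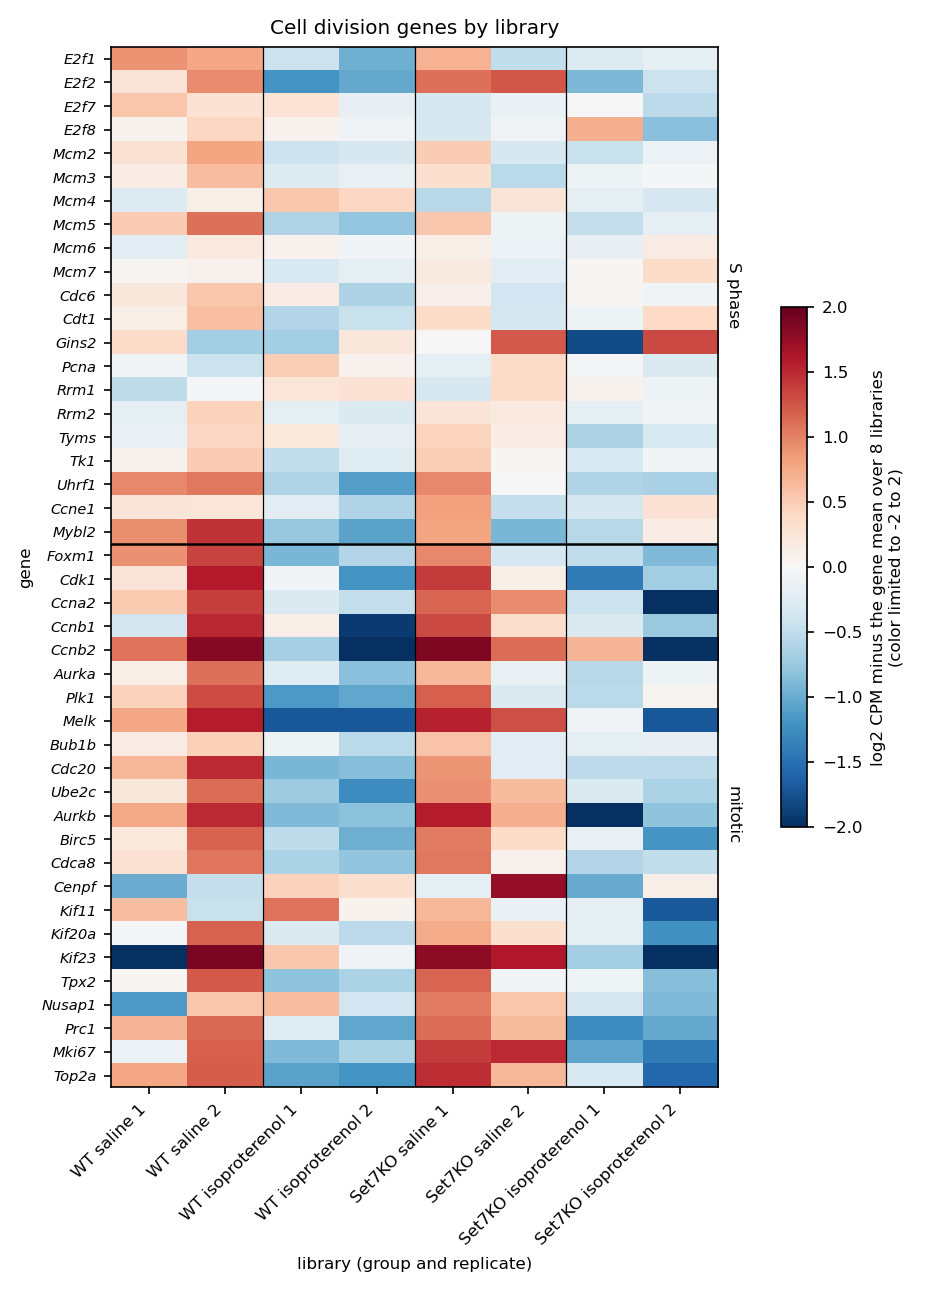
Each row is one of the 44 genes tested and each column a library, and color is log2 CPM minus the mean of that gene over the 8 libraries, limited to -2 to 2. Most mitotic rows are red in saline and blue in isoproterenol columns, while S phase rows such as Mcm6, Pcna and Rrm1 do not follow that pattern.

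Promoter sequence showed how the classes differ in the elements they carry. RefSeq (GRCm38.p6) promoters were at hand for 42 of the 52 genes, 21 of each class; Kif20a, Aurkb, Gins2, Ccne2, Foxm1, Exo1, Tpx2, Ccna2, Esco2 and Mcm4 had no entry. Motifs were searched on both strands, as an E2F site (TTTCCCGC, TTTCGCGC, TTTGGCGC or TTTGCCGC), as a CHR (TTTGAA or TTCGAA) and as a CCAAT box (CCAAT); E2F forms on opposite strands can overlap each other. The 250 bases before the start are printed 5′ to 3′ on the strand of the gene, in lower case with every match in capitals. Mcm5 and Mcm6 are shown because both hold E2F sites and sit in 1 helicase ring, with log2 fold changes of -1.06 and 0.00. The other 4 are examples that hold both a CHR and a CCAAT box, picked from 15 mitotic genes lower after isoproterenol with no overlap of libraries. Of the rest with a promoter entry, Ccnb2 and Ube2c also held both elements in the 250 bases. Cdca8 and Prc1 held CCAAT boxes but no CHR there, and Melk and Birc5 held no match of any kind.
Mcm5 (chr8:75109259-75109508, plus strand): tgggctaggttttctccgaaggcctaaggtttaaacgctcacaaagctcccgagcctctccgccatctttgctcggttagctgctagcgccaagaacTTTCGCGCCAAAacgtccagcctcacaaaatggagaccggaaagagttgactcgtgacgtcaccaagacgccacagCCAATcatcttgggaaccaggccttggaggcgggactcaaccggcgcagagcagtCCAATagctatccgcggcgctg
Mcm6 (chr1:128359706-128359955, minus strand): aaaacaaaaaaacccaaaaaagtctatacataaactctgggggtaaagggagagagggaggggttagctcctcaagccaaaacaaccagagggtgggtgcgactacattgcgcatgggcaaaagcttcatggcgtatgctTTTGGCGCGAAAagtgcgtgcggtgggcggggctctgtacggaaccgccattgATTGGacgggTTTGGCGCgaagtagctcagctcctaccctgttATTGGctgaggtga
Cdk1 (chr10:69352913-69353162, minus strand): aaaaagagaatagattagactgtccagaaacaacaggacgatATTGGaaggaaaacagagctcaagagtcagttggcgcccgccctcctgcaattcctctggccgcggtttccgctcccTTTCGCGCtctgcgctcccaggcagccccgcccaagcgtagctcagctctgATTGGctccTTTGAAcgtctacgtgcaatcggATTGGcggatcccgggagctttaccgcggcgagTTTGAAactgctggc
Cdc20 (chr4:118437344-118437593, minus strand): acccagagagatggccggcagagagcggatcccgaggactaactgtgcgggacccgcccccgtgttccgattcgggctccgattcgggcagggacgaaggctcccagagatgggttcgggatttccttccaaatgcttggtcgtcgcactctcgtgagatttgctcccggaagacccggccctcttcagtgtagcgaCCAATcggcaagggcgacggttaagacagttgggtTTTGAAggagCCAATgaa
Mki67 (chr7:135716380-135716629, minus strand): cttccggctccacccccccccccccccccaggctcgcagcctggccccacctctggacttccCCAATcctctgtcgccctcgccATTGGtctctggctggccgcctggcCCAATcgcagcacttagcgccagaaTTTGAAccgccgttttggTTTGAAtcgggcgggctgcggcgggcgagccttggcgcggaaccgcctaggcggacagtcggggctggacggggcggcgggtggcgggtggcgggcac
Top2a (chr11:99024190-99024439, minus strand): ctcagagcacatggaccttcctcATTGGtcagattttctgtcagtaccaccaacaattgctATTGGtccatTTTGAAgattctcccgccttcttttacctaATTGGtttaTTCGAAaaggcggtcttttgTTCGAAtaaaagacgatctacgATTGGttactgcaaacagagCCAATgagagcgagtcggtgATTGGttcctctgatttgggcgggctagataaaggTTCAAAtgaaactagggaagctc

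In these windows Top2a, the enzyme that untangles sister chromatids, held 4 CHR and 6 CCAAT matches and no E2F match, and Mcm6, a subunit of the replicative helicase, held 3 E2F matches and no CHR. An E2F site stood before the start of 23.8% of S phase and 4.76% of mitotic promoters, against 3.24% of the 11342 promoters of genes tested. With 50 bases after the start included, the E2F shares were 38.1%, 4.76% and 3.87%. A CHR stood before the start of 38.1% of mitotic, 14.3% of S phase and 12.3% of all these promoters. When the window ran on to 50 bases after the start, the share with a CHR came to 76.2% of mitotic, 14.3% of S phase and 13.7% of all promoters. The CCAAT box was found before the start of 85.7% of mitotic, 61.9% of S phase and 35.8% of all promoters. Both elements together, in the window with 50 bases after the start, were in 76.2% of mitotic, 14.3% of S phase and 5.71% of all promoters. A match is a description of the letters and no proof of binding. The start is that of RefSeq, and for E2f1, Mcm7, Chek1, Cdc6 and Cdca8 it lay 350 to 2394 bases from the GENCODE start. The windows of these genes fall wholly inside the GENCODE gene, so sites nearer its start were not searched. The members of the 2 classes were chosen by role, and the promoters took no part in that choice.

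**Figure D2:**
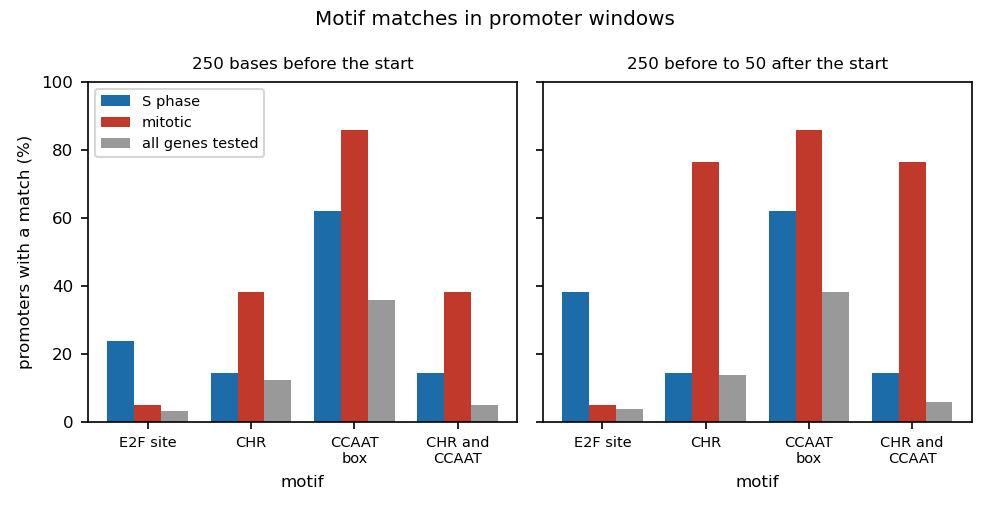
Bars give the percent of promoters with at least 1 match for 21 S phase genes, 21 mitotic genes and 11342 genes tested, in the 250 bases before the start (left) and in that window with 50 bases after the start (right). The CHR bar of the mitotic genes goes from 38.1% to 76.2% between the panels.

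Among the 4 E2F members, E2f2 and E2f1 were lower after isoproterenol at an unadjusted p under 0.05, and E2f7 and E2f8 were not past that level. In what follows, levels are normalised CPM, and each pair gives replicate 1 and then replicate 2 of a group. E2f2 was at 1.27 and 2.09 CPM in WT saline, 0.431 and 0.491 in WT isoproterenol, 2.34 and 2.59 in Set7KO saline, and 0.542 and 0.768 in Set7KO isoproterenol. All 4 isoproterenol libraries lay below all 4 saline libraries, with means of 0.558 ± 0.147 and 2.07 ± 0.574 CPM (SD, n = 4). The log2 fold change of E2f2 was -1.89 (SE 0.28), a 3.70-fold lower level (unadjusted p = 0.00013, edgeR adjusted p = 0.0859). It was -1.86 (SE 0.41) in WT and -1.92 (SE 0.40) in Set7KO.

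E2f1, a second activator, was at 3.32 and 3.05 CPM in WT saline, 1.29 and 0.866 in WT isoproterenol, 2.89 and 1.24 in Set7KO saline, and 1.45 and 1.54 in Set7KO isoproterenol. The groups overlapped through Set7KO saline 2, which was below 3 of the 4 isoproterenol libraries. Averaged over genotypes the log2 fold change of E2f1 was -1.003 (SE 0.31, unadjusted p = 0.0119, edgeR adjusted p = 0.352), made up of -1.55 (SE 0.45) in WT and -0.46 (SE 0.44, unadjusted p = 0.333) in Set7KO. The repressor E2f7 was at 1.60 and 1.33 CPM in WT saline, 1.32 and 0.953 in WT isoproterenol, 0.845 and 0.977 in Set7KO saline, and 1.08 and 0.732 in Set7KO isoproterenol. E2f8 was at 1.08 and 1.39, 1.09 and 0.981, 0.813 and 0.977, and 1.75 and 0.549 CPM in the same order of groups. For both repressors saline and isoproterenol libraries overlapped, and the log2 fold changes were -0.18 (SE 0.27) for E2f7 and 0.06 (SE 0.37) for E2f8. E2f3, an activator outside the 52 genes, had means of 5.74 ± 0.631 CPM in saline and 6.32 ± 2.08 CPM in isoproterenol libraries (SD, n = 4). Its log2 fold change was 0.11 (SE 0.24, unadjusted p = 0.649).

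The licensing genes load and form the helicase that opens replication origins, and its 6 Mcm subunits work as 1 ring. Their responses were unequal. Mcm5 (chromosome 8, 75109569 to 75128439) was at 8.21 and 12.4 CPM in WT saline, 3.79 and 3.35 in WT isoproterenol, 8.45 and 5.38 in Set7KO saline, and 4.16 and 5.01 in Set7KO isoproterenol. No isoproterenol library reached a saline library. The log2 fold change of Mcm5 was -1.06 (SE 0.24, 2.09-fold lower, unadjusted p = 0.00176, edgeR adjusted p = 0.196), with -1.53 (SE 0.34) in WT and -0.59 (SE 0.33) in Set7KO.

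Mcm2 was at 14.3 and 20.02 CPM in WT saline, 8.6 and 9.18 in WT isoproterenol, 16.4 and 9.19 in Set7KO saline, and 8.43 and 10.7 in Set7KO isoproterenol. Its Set7KO saline 2 value lay among the isoproterenol values, and its log2 fold change was -0.69 (SE 0.23, unadjusted p = 0.0182). For Mcm3 the levels were 11.1 and 15.3, 8.26 and 9.01, 12.6 and 6.82, and 9.28 and 9.81 CPM in the order WT saline, WT isoproterenol, Set7KO saline and Set7KO isoproterenol. Here Set7KO saline 2 was the lowest of all 8 libraries, and the log2 fold change was -0.32 (SE 0.23).

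The other ring subunits had log2 fold changes from -0.06 to 0.19. Mcm6 (chromosome 1, 128331590 to 128359664) was at 8.21 and 10.9 CPM in WT saline, 9.96 and 9.18 in WT isoproterenol, 10.3 and 8.81 in Set7KO saline, and 8.49 and 10.7 in Set7KO isoproterenol. Saline and isoproterenol means were 9.57 ± 1.28 and 9.58 ± 0.95 CPM (SD, n = 4), and the log2 fold change was 0.00 (SE 0.19). Mcm7, with the highest level per kilobase among the licensing genes (3.66 CPM per kb over the 8 libraries), was at 16.7 and 17.1, 12.9 and 14.0, 18.2 and 13.7, and 16.3 and 20.8 CPM in the order of groups above. Mcm4 was at 3.99 and 5.24, 7.03 and 6.44, 3.28 and 5.78, and 4.28 and 3.81 CPM. In Mcm4 the WT isoproterenol libraries were the highest of the 8, and in Mcm7 Set7KO isoproterenol 2 was. Their log2 fold changes were -0.06 (SE 0.17) for Mcm7 and 0.19 (SE 0.24) for Mcm4. Cdc6 and Cdt1, which load the ring, and Gins2, part of the active helicase, had log2 fold changes from -0.40 to -0.19 with overlapping groups. Of the 9 licensing genes, Mcm2 and Mcm5 were lower at an unadjusted p under 0.05 and 0 were higher.

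The DNA synthesis genes were also uneven. Uhrf1, which guides the copying of DNA methylation, was at 3.69 and 3.91 CPM in WT saline, 1.203 and 0.837 in WT isoproterenol, 3.67 and 1.85 in Set7KO saline, and 1.21 and 1.17 in Set7KO isoproterenol. Isoproterenol and saline libraries did not overlap. The log2 fold change of Uhrf1 was -1.55 (SE 0.29, 2.92-fold lower, unadjusted p = 0.000531, edgeR adjusted p = 0.143). Tk1, the thymidine kinase of dividing cells, was at 5.19 and 7.09, 3.49 and 4.18, 6.96 and 5.04, and 4.01 and 4.76 CPM in WT saline, WT isoproterenol, Set7KO saline and Set7KO isoproterenol. These groups did not overlap either, with a smaller log2 fold change of -0.57 (SE 0.22, unadjusted p = 0.0289).

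Pcna, the sliding clamp of DNA polymerases, went the other way in WT without passing a threshold. It was at 11.9 and 9.08 CPM in WT saline, 17.3 and 13.0 in WT isoproterenol, 10.8 and 16.1 in Set7KO saline, and 12.02 and 10.0 in Set7KO isoproterenol. WT isoproterenol 1 and Set7KO saline 2 were the highest Pcna libraries, and the log2 fold change was 0.54 (SE 0.30) in WT and -0.29 (SE 0.30) in Set7KO. Rrm1, the large subunit of the enzyme that makes deoxynucleotides, was at 9.70 and 13.6, 16.3 and 16.9, 11.1 and 17.9, and 14.5 and 12.8 CPM in the same order. Set7KO saline 2 was the highest library, and the averaged log2 fold change of Rrm1 was 0.21 (SE 0.21). Rrm2 and Tyms, the small subunit of that enzyme and the thymidylate synthase, had log2 fold changes of -0.40 (SE 0.25) and -0.46 (SE 0.25), with unadjusted p = 0.146 and 0.102.

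Ccne1, the cyclin that starts S phase with Cdk2, was at 1.68 and 1.66 CPM in WT saline, 1.18 and 0.895 in WT isoproterenol, 2.50 and 0.997 in Set7KO saline, and 1.08 and 1.72 in Set7KO isoproterenol. Its groups overlapped and its log2 fold change was -0.49 (SE 0.34). Ccne2 had 16 and 8 counts in WT isoproterenol, 11 in Set7KO saline 2 and 0 in the other 5 libraries, so it was not tested. The S phase repair genes were near the floor and none was tested. Brca1, a repair factor, had 0 to 18 counts per library and Exo1, an exonuclease, 0 to 14. Chek1, the checkpoint kinase, had 2 counts in each of 3 libraries and 0 in 5, and Esco2, which makes cohesin hold sister chromatids, had 0 counts in all 8.

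**Figure D3:**
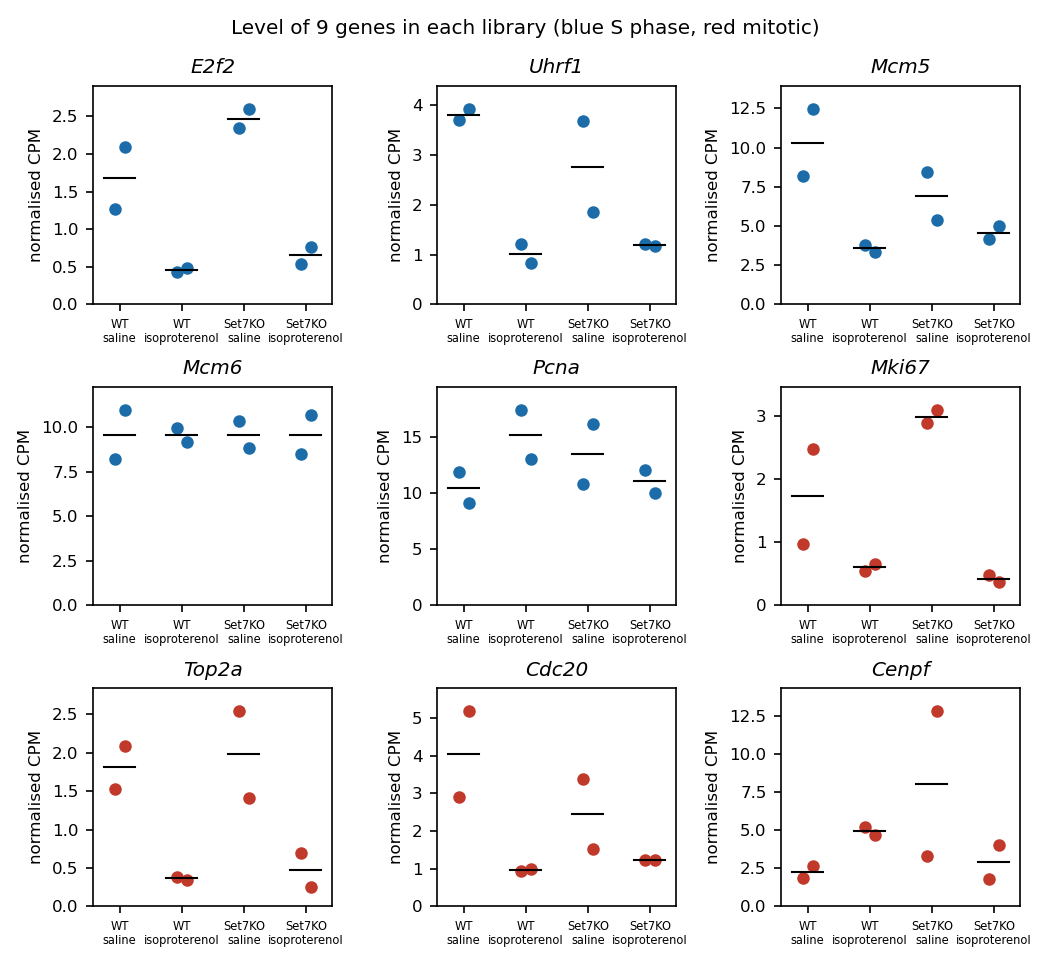
Points are the 2 libraries of each group and lines their mean, in normalised CPM on axes that start at 0, for 5 S phase genes (blue) and 4 mitotic genes (red). E2f2, Uhrf1, Mcm5, Mki67, Top2a and Cdc20 have no overlap between saline and isoproterenol libraries, whereas Mcm6, Pcna and Cenpf overlap.

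The transcription factors of the late cycle were both lower. Foxm1 was at 2.80 and 3.81 CPM in WT saline, 0.749 and 0.953 in WT isoproterenol, 2.89 and 1.14 in Set7KO saline, and 1.02 and 0.768 in Set7KO isoproterenol. The lowest saline library, Set7KO saline 2, was just above the highest isoproterenol library. The log2 fold change of Foxm1 was -1.55 (SE 0.34, 2.93-fold lower, unadjusted p = 0.00178, edgeR adjusted p = 0.196). Mybl2 was at 0.858 and 1.26 CPM in WT saline, 0.227 and 0.173 in WT isoproterenol, 0.780 and 0.199 in Set7KO saline, and 0.271 and 0.476 in Set7KO isoproterenol. Set7KO saline 2 lay among the isoproterenol libraries. Its log2 fold change was -1.36 (SE 0.50, unadjusted p = 0.0245), with -2.38 (SE 0.71) in WT and -0.35 (SE 0.70) in Set7KO.

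All 7 mitotic cyclins and kinases had negative log2 fold changes, with 6 past an unadjusted p of 0.05 and a median log2 fold change of -1.85. Cdk1 (chromosome 10, 69335146 to 69352938), the kinase that drives entry into mitosis, was at 0.970 and 2.52 CPM in WT saline, 0.771 and 0.318 in WT isoproterenol, 2.21 and 0.877 in Set7KO saline, and 0.271 and 0.476 in Set7KO isoproterenol. Every isoproterenol library was below every saline library, and the log2 fold change was -1.85 (SE 0.50, 3.60-fold lower, unadjusted p = 0.00544, edgeR adjusted p = 0.284). Ccnb2, a cyclin B, was at 0.896 and 1.56, 0.227 and 0, 1.59 and 0.917, and 0.663 and 0 CPM in WT saline, WT isoproterenol, Set7KO saline and Set7KO isoproterenol. The second isoproterenol library of each genotype had no Ccnb2 count, and the log2 fold change was -2.57 (SE 0.87, unadjusted p = 0.0174).

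Melk, a kinase of dividing cells, was at 0.261 and 0.497 CPM in WT saline, 0 and 0 in WT isoproterenol, 0.487 and 0.399 in Set7KO saline, and 0.120 and 0 in Set7KO isoproterenol. With both WT isoproterenol libraries at 0, Melk was at least 10.1-fold lower there than in WT saline, set against a floor of 3 counts over the group; its unadjusted p was 0.00134 for isoproterenol averaged over genotypes and its edgeR adjusted p 0.19. Plk1, a kinase of spindle assembly, was at 1.08 and 1.99, 0.318 and 0.346, 1.85 and 0.618, and 0.512 and 0.805 CPM in the same order of groups. Aurka, which acts at spindle poles, was at 1.34 and 2.69, 1.02 and 0.664, 1.98 and 1.10, and 0.813 and 1.13 CPM. In both, Set7KO saline 2 overlapped the isoproterenol libraries, and log2 fold changes were -1.55 (SE 0.43) for Plk1 and -0.95 (SE 0.35) for Aurka. Ccna2, cyclin A2, did not overlap between treatments and had a log2 fold change of -2.08 (SE 0.61), while Ccnb1, cyclin B1, held 0 to 17 counts and had -1.78 (SE 0.83, unadjusted p = 0.0644).

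Genes of the anaphase promoting complex were lower as well. Cdc20 (chromosome 4, 118432901 to 118437352), which activates that complex, was at 2.91 and 5.17 CPM in WT saline, 0.930 and 0.981 in WT isoproterenol, 3.38 and 1.53 in Set7KO saline, and 1.24 and 1.24 in Set7KO isoproterenol. The 4 isoproterenol libraries stayed within 0.930 to 1.24 CPM, under all saline libraries. The log2 fold change of Cdc20 was -1.53 (SE 0.33, 2.88-fold lower, unadjusted p = 0.00137, edgeR adjusted p = 0.19). Ube2c, its ubiquitin-conjugating enzyme, was at 1.31 and 2.49, 0.658 and 0.433, 2.15 and 1.75, and 0.903 and 0.695 CPM in WT saline, WT isoproterenol, Set7KO saline and Set7KO isoproterenol. There was no overlap, and the log2 fold change was -1.53 (SE 0.31, unadjusted p = 0.00104, edgeR adjusted p = 0.186). The checkpoint kinase Bub1b was at 1.72 and 2.15, 1.43 and 1.04, 2.31 and 1.32, and 1.32 and 1.35 CPM. Its groups overlapped, with a log2 fold change of -0.54 (SE 0.27, unadjusted p = 0.0858), and the related Bub1 had 0 counts in all 8 libraries.

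All 3 chromosomal passenger genes were lower with no overlap between treatments. Aurkb, the kinase of this complex, was at 0.970 and 1.66 CPM in WT saline, 0.272 and 0.289 in WT isoproterenol, 1.75 and 0.957 in Set7KO saline, and 0.0903 and 0.293 in Set7KO isoproterenol. Its log2 fold change was -2.52 (SE 0.43, 5.75-fold lower, unadjusted p = 0.000338, edgeR adjusted p = 0.127). Birc5 (survivin) was at 0.672 and 1.36, 0.386 and 0.260, 1.24 and 0.757, and 0.512 and 0.220 CPM in the order of groups above. Cdca8 (borealin) was at 1.04 and 1.82, 0.522 and 0.462, 1.82 and 0.897, and 0.542 and 0.585 CPM. The log2 fold changes of these partners were -1.52 (SE 0.42) for Birc5 and -1.39 (SE 0.35) for Cdca8.

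Spindle and kinetochore genes were the most mixed of the mitotic roles, with 4 of 7 tested genes lower at an unadjusted p under 0.05. Prc1, which bundles microtubules at the spindle midzone, was at 1.08 and 1.52 CPM in WT saline, 0.545 and 0.289 in WT isoproterenol, 1.495 and 1.06 in Set7KO saline, and 0.241 and 0.293 in Set7KO isoproterenol. Its groups did not overlap, and the log2 fold change was -1.93 (SE 0.34, 3.82-fold lower, unadjusted p = 0.000415, edgeR adjusted p = 0.14). Tpx2, a spindle assembly factor, was at 0.858 and 2.02, 0.454 and 0.520, 1.95 and 0.797, and 0.783 and 0.439 CPM in WT saline, WT isoproterenol, Set7KO saline and Set7KO isoproterenol. Kif20a, a kinesin of the midzone, was at 1.49 and 3.51, 1.23 and 1.04, 2.57 and 1.91, and 1.32 and 0.622 CPM. Neither overlapped between treatments, and log2 fold changes were -1.35 (SE 0.43) for Tpx2 and -1.16 (SE 0.36) for Kif20a.

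Cenpf, a large kinetochore protein, was the mitotic gene with the smallest averaged difference, a log2 fold change of -0.17 (SE 0.43), with opposite signs in the genotypes. It was at 1.87 and 2.69 CPM in WT saline, 5.196 and 4.68 in WT isoproterenol, 3.31 and 12.8 in Set7KO saline, and 1.84 and 4.06 in Set7KO isoproterenol. In WT both isoproterenol libraries were above both saline libraries, and in Set7KO the largest value was that of Set7KO saline 2. Its log2 fold change was 1.11 (SE 0.62, unadjusted p = 0.109) in WT and -1.46 (SE 0.62, unadjusted p = 0.0438) in Set7KO. Kif11, the kinesin that pushes spindle poles apart, was at 0.411 and 0.166 CPM in WT saline, 0.590 and 0.260 in WT isoproterenol, 0.422 and 0.219 in Set7KO saline, and 0.211 and 0.0366 in Set7KO isoproterenol. These levels rested on 1 to 26 counts and overlapped. The midbody kinesin Kif23 had 0 counts in WT saline 1 and Set7KO isoproterenol 2 and 5 to 48 in the others, and its log2 fold change of -2.20 (SE 0.96, unadjusted p = 0.05 as rounded, counted among the 4) turned to 1.49 without WT saline 2 and to 1.34 with the clock genes in the model. Nusap1, a spindle microtubule protein, overlapped between treatments and had a log2 fold change of -0.65 (SE 0.54). The kinetochore motor Cenpe had 0 to 15 counts per library and the spindle protein Hmmr 0 to 6, and neither was tested.

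The 2 genes most used to mark dividing cells were both lower. Mki67 (chromosome 7, 135689784 to 135716361), which encodes Ki-67, was at 0.970 and 2.49 CPM in WT saline, 0.545 and 0.664 in WT isoproterenol, 2.89 and 3.09 in Set7KO saline, and 0.482 and 0.366 in Set7KO isoproterenol. Top2a (chromosome 11, 98992943 to 99024189) was at 1.53 and 2.09, 0.386 and 0.346, 2.54 and 1.42, and 0.693 and 0.256 CPM in the same order. For both genes the isoproterenol libraries were all below the saline libraries, 4.47-fold for Mki67 (unadjusted p = 0.000209, edgeR adjusted p = 0.0971) and 4.45-fold for Top2a (unadjusted p = 0.000385, edgeR adjusted p = 0.139).

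Side by side, 15 of 23 mitotic genes and 4 of 21 S phase genes (E2f2, Mcm5, Tk1 and Uhrf1) had all 4 isoproterenol libraries below all 4 saline libraries, a pattern shown by 2.01% of all genes tested. The reverse pattern was shown by 0 of the 44 and by 2.11% of all genes. Genes that passed the filter through saline libraries alone, such as Melk, could hardly show that reverse pattern. As a profile, the median mitotic gene stood 0.25 to 1.21 above its own mean (log2 CPM) in the saline libraries and 0.43 to 0.88 below it in the isoproterenol libraries. For the median S phase gene the saline range was -0.10 to 0.46 and the isoproterenol range -0.27 to -0.11, so Set7KO saline 2, at -0.10, was next to Set7KO isoproterenol 2. WT saline 1 and Set7KO saline 2 were the lower library of their group in both classes. The classes also differed in level: median CPM per kilobase was 0.882 for the S phase genes tested and 0.209 for the mitotic genes tested. Counts were thus smaller for the mitotic genes, and the difference between the 2 classes was given no test, since the classes were set with earlier results known.

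**Figure D4:**
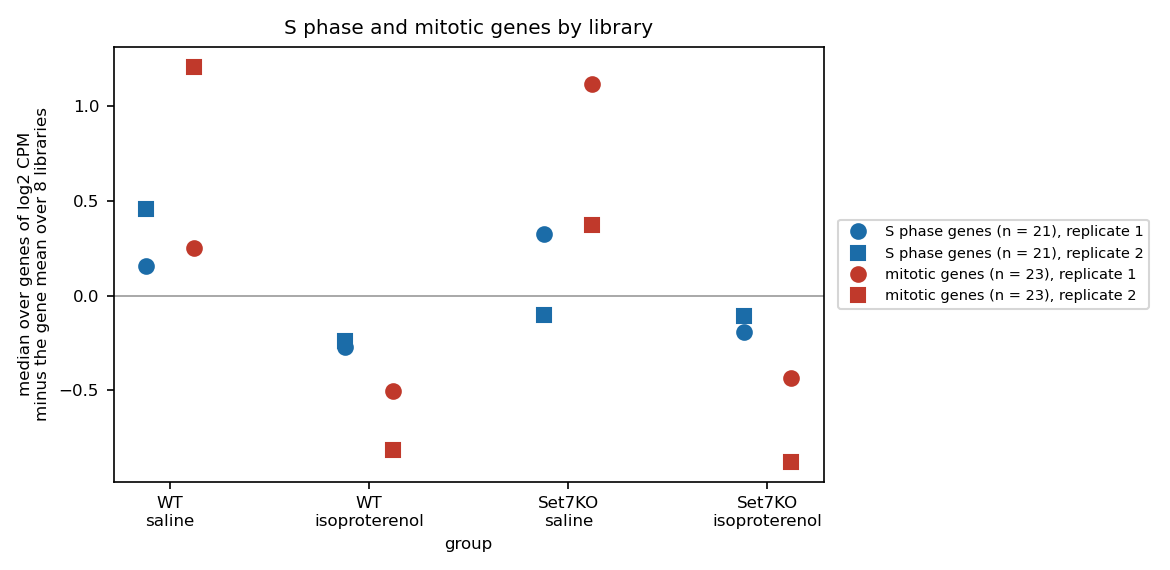
Each point is the median over the genes of a class of log2 CPM minus the mean of the gene over 8 libraries, for 1 library (circle replicate 1, square replicate 2), blue for 21 S phase and red for 23 mitotic genes. The red points lie between 0.25 and 1.21 in saline and between -0.88 and -0.43 in isoproterenol, and the blue points move over a narrower range.

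Markers of some other cell types moved when isoproterenol was compared with saline averaged over genotypes. Over all genes tested, 4.9% were lower and 4.5% higher there at an unadjusted p under 0.05. Of 10 tested B and T cell markers 8 were lower and 0 higher at an unadjusted p under 0.05, and their summed level was 9.87 to 17.4 CPM in saline and 3.20 to 10.9 CPM in isoproterenol libraries. Of 6 tested erythroid markers 5 were lower and 0 higher (3768 to 10520 against 1254 to 4351 CPM), and of 8 macrophage markers 4 were lower and 0 higher (301 to 487 against 189.2 to 452 CPM). Immature thymocyte markers summed to 0.896 to 1.96 against 0.520 to 1.35 CPM, 1 of the 2 tested was lower, and Rag2 and Dntt had 0 counts in all 8 libraries. Of the myeloid progenitor granule genes Elane, Mpo, Ctsg and Ms4a3 had 0 counts in all 8 libraries. Fibroblast markers gave 0 lower and 3 higher of 7 (525 to 936 against 872 to 1121 CPM), and neither endothelial (7 tested) nor cardiomyocyte markers (7 tested, 75910 to 110000 CPM summed over the list, high in every library of this heart tissue) had one past that level. The part of these cell types in the lower levels of the cell division genes was not tested.

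Within WT hearts Uhrf1, E2f2 and Mcm5 led the lower genes, and most others were mitotic. Isoproterenol against saline in WT gave 22 of 44 genes lower (7 S phase and 15 mitotic) and 0 higher at an unadjusted p under 0.05, beside 13.3% of all genes lower and 18.5% higher. No gene of the 44 passed the adjusted threshold, nor did any of all genes (0%), with edgeR; limma-voom passed 0 and DESeq2 passed 11, beside 15.2% of all genes. Medians were -1.62 for mitotic, -0.61 for S phase and 0.06 for all genes. The smallest p-values were those of Uhrf1 (log2 fold change -1.89, SE 0.40), E2f2 and Mcm5. With 1 library left out at a time the mitotic median ran from -2.05 to -1.07 and the S phase median from -0.70 to -0.40. The count of 22 fell without WT saline 2 and without WT isoproterenol 2, and in both fits the share of all genes fell too. Without Set7KO saline 1, whose spread the fit shares, 15 genes passed the adjusted threshold as lower and Ccne2 as higher, beside 20.1% of all genes. Without Set7KO saline 2, 15 passed, all lower, beside 20.7% of all genes. Of the markers in WT, 9 of 10 B and T cell (median log2 fold change -2.29), 4 of 6 erythroid and 4 of 8 macrophage markers were lower and 0 higher at an unadjusted p under 0.05, and their part was not tested.

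Within Set7KO hearts Mki67, E2f2 and Prc1 led the lower genes, most of them mitotic. Isoproterenol against saline in Set7KO gave 16 of 44 genes lower (2 S phase and 14 mitotic) and 0 higher at an unadjusted p under 0.05. Of all genes 6.01% were lower and 3.65% higher. None passed the adjusted threshold with edgeR (0% of all genes) or limma-voom, and 1 gene, Mki67, passed with DESeq2, beside 0.573% of all genes. Medians were -1.46 for mitotic, -0.29 for S phase and -0.04 for all genes. Mki67 had the smallest p, with a log2 fold change of -2.80 (SE 0.50), followed by E2f2 and then Prc1 (-2.24, SE 0.50). With 1 library left out at a time the mitotic median ran from -1.93 to -1.13 and the S phase median from -0.54 to -0.20. The count of 16 fell without either WT isoproterenol library, Set7KO saline 1 or Set7KO isoproterenol 2, and the share of all genes changed too. With the clock genes in the model 4 of the 44 genes were lower, beside 9.57% of all genes. The medians in that model were -0.55 (mitotic) and -0.02 (S phase). Of the markers in Set7KO, 0 of 10 B and T cell (median -0.46), 0 of 8 macrophage and 5 of 6 erythroid markers were lower at an unadjusted p under 0.05.

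**Figure D5:**
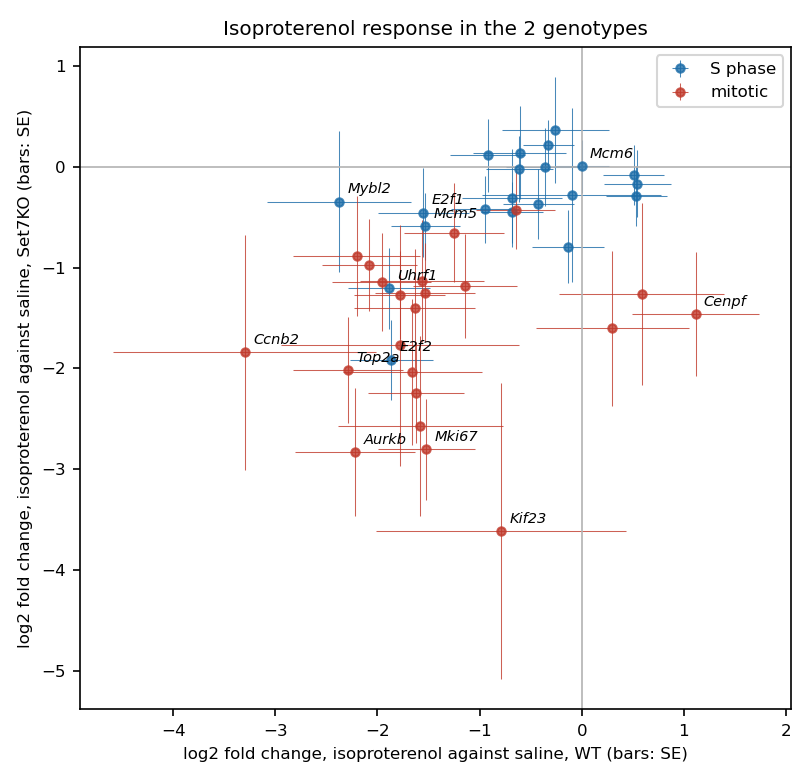
Each point is a gene, with its log2 fold change for isoproterenol against saline in WT on the x axis and in Set7KO on the y axis, bars showing the SE; Melk, at 0 in both WT isoproterenol libraries, is left out. Red (mitotic) points lie mostly in the lower left, Mybl2 lies at -2.38 (WT) and -0.35 (Set7KO), and Cenpf (1.11 and -1.46) has opposite signs.

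In the main edgeR fit, with its filter and all libraries, only Cenpf of these genes passed an unadjusted p of 0.05 between Set7KO and WT hearts. Fits without the filter, with GC and length offsets or with the clock genes gave slightly different counts. After saline, Set7KO against WT gave 0 genes lower and 1 higher at an unadjusted p under 0.05, beside 2.46% and 7.83% of all genes. The 1 gene was Cenpf (log2 fold change 1.83, SE 0.63, unadjusted p = 0.0184, edgeR adjusted p = 0.483). Next came Mcm5 (-0.58, SE 0.33) and E2f7 (-0.68, SE 0.38). The Cenpf value rests on the 12.8 CPM of Set7KO saline 2. Medians were -0.09 for S phase and 0.01 for mitotic genes. Without Set7KO saline 1, 9 of 46 genes were lower and 2 higher at that level, beside 12.9% and 17.6% of all genes, and Cenpf passed the adjusted threshold as higher, beside 5.64%. Without WT saline 2, 0 of 48 were lower and 5 higher, beside 1.03% and 3.09%. The mitotic median was -0.42 in the first of these fits and 0.57 in the second. After isoproterenol 0 genes were lower and 0 higher, beside 12.7% and 7.22% of all genes. The smallest p-values there were those of Mcm4 (-0.74, SE 0.33, unadjusted p = 0.0563), Melk (unadjusted p = 0.0652) and Kif11 (-1.71, SE 0.88). Averaged over treatments 0 of 44 were lower and 0 higher, beside 0.578% and 0.987% of all genes. With shares this small, a count of 0 says little about the 44. The smallest p-values were those of Melk, E2f2 (0.53, SE 0.28) and E2f7 (-0.50, SE 0.27). In each of these 3 comparisons 0.00567% of all genes, which is 1 gene, passed the adjusted threshold with edgeR. That gene was Setd7, the gene deleted in Set7KO. Of the 44, 0 passed with edgeR, limma-voom or DESeq2.

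The interaction asks whether isoproterenol acted differently in Set7KO and WT hearts. Of the 44 genes 1 was lower and 0 higher at an unadjusted p under 0.05, beside 18.6% and 12% of all genes. The 1 gene was Cenpf, whose response was lower in Set7KO by 2.58 on the log2 scale (unadjusted p = 0.0176, edgeR adjusted p = 0.115). None of the 44 and none of all genes (0%) passed the adjusted threshold with edgeR, limma-voom passed 0 and DESeq2 passed 1 (Cenpf), beside 12.9% of all genes. The next smallest p-values were those of Mybl2 (2.03, SE 1.00, unadjusted p = 0.0745) and Mcm5 (0.94, SE 0.47, unadjusted p = 0.0772). Median interactions were 0.37 for S phase and 0.22 for mitotic genes. With 1 library left out the mitotic median ran from -0.32 (without WT saline 2) to 0.66 (without Set7KO saline 1), so its sign depends on the library left out, and the S phase median ran from 0.06 (without Set7KO isoproterenol 2) to 0.48 (without WT isoproterenol 1). In 4 of the 44 genes (E2f1, Mybl2, Cenpf and Mki67) the Set7KO libraries lay apart from the WT libraries after saline and apart in the opposite direction after isoproterenol, which 26.8% of all genes tested did.

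Genes that regulate or accompany the 52 were taken from 3 further lists of the pathway. Of 30 regulators tested, upstream of E2F or of the cycle, 2 were lower and 1 higher at an unadjusted p under 0.05 for isoproterenol averaged over genotypes. Over all genes tested 4.9% were lower and 4.5% higher at that level, so these counts are near the share of all genes. The median log2 fold change of the regulators was 0.22. Cdkn1a (p21), an inhibitor of cyclin-dependent kinases, was at 24.0 and 47.9 CPM in WT saline, 21.7 and 20.03 in WT isoproterenol, 60.1 and 58.5 in Set7KO saline, and 32.3 and 43.1 in Set7KO isoproterenol. Within each genotype its isoproterenol libraries were lower, with a log2 fold change of -0.72 (SE 0.23, unadjusted p = 0.0131, edgeR adjusted p = 0.363). Ccnd3, a cyclin D, was lower on average (-0.47, SE 0.20, unadjusted p = 0.0432), with -1.005 (SE 0.284) in WT and 0.057 (SE 0.281) in Set7KO. Gmnn (geminin), which holds Cdt1, was higher on average (0.57, SE 0.22, unadjusted p = 0.0316), with 1.125 (SE 0.315) in WT and 0.013 (SE 0.311) in Set7KO. Gmnn was nonetheless at 58.6 CPM in Set7KO saline 2, the second highest library. Rb1, the retinoblastoma protein, had 0.38 (SE 0.29) and Ccnd1, cyclin D1, -0.47 (SE 0.31), and neither was past that level.

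Of 37 other S phase genes tested, 3 were lower (Mcm10, Asf1b and Clspn) and 0 higher at an unadjusted p under 0.05, with a median log2 fold change of -0.10. Over all genes tested 4.9% were lower and 4.5% higher at that level. Counts this small say little about the list. Mcm10, an initiation factor, was at 0.485 and 0.829 CPM in WT saline, 0.204 and 0.289 in WT isoproterenol, 0.748 and 0.738 in Set7KO saline, and 0.271 and 0.403 in Set7KO isoproterenol. Its groups did not overlap, and the log2 fold change was -1.28 (SE 0.36, unadjusted p = 0.00728). Asf1b, a histone chaperone, had -0.92 (SE 0.28) and Clspn (claspin), a replication checkpoint protein, -1.79 (SE 0.64).

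Of 34 other mitotic genes tested, 20 were lower and 1 higher (Cenpa, 0.68) at an unadjusted p under 0.05, beside 4.9% and 4.5% of all genes. Their median log2 fold change was -0.91. Kif2c, a kinesin that corrects attachments, was at 0.448 and 0.862 CPM in WT saline, 0.552 and 0.419 in Set7KO saline, and 0 in all 4 isoproterenol libraries; its edgeR adjusted p was 0.0859 (unadjusted p = 0.000136). Kif18b, another kinesin, was at 0.448 and 1.69, 0 and 0, 0.943 and 0.439, and 0.241 and 0.183 CPM in WT saline, WT isoproterenol, Set7KO saline and Set7KO isoproterenol. Pimreg, a gene of dividing cells, was at 1.42 and 2.69, 0.114 and 0, 2.27 and 0.419, and 0.361 and 0.220 CPM. For all 3, every isoproterenol library was below every saline library. Kif2c passed the filter through saline libraries alone and could not have come out higher.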

How the data were processed

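Heart RNA of 8 libraries was sequenced as stranded mRNA with single reads of 75 cycles, per the labels' protocols. The authors deposited raw counts per gene and library. GRCm38, HISAT2, HISAT, StringTie and edgeR are named per the submitters' processing notes. Versions, settings and the use of strand were not given in the sources used here. Genes of overlapping position or high similarity can share counts.

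Here, groups came from the labels and replicate numbers from accession order. In edgeR 4.0.16 (R 4.3.3), 1 model with 4 group means took in all 8 libraries, with TMM and filterByExpr (17636 genes, 44 of the 52), and 7 contrasts were tested with two-sided quasi-likelihood F-tests, adjusted over all genes tested (threshold 0.05). Standard errors came from the F statistic. The fit was tested on simulated data. Alternatives were DESeq2 1.42.0, limma-voom (limma 3.58.1), no filter, a filter of 1 CPM in 2 libraries, 2 groups only, GC and length offsets (splines of 5 df), each library left out, and a clock covariate.

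The members, lists, classes and named genes were chosen with earlier results of these data known. Values in every library are given for the E2F factors; for up to 3 genes of each role with the highest level per length and 2 with the smallest p for isoproterenol averaged over genotypes; for genes opposite in sign to the median; and for the 3 smallest p-values of each other contrast. In the pathway lists the 3 smallest p-values, Rb1 and Ccnd1 are named.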

Additional observations from a re-analysis of the deposited data

Results flagged for a closer look

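In 4 of the 44 genes both Set7KO libraries lay on one side of both WT libraries after saline and on the other side after isoproterenol. This is a lower share than over all genes tested, of which 26.8% did so. The interaction, as Set7KO response minus WT response on the log2 scale, was 1.10 for E2f1 (unadjusted p = 0.116, edgeR adjusted p = 0.25), 2.03 for Mybl2 (unadjusted p = 0.0745, edgeR adjusted p = 0.197), -2.58 for Cenpf (unadjusted p = 0.0176, edgeR adjusted p = 0.115) and -1.28 for Mki67 (unadjusted p = 0.0965, edgeR adjusted p = 0.226). None passed the adjusted threshold. E2f1 and Mybl2 were lower in Set7KO than in WT after saline and higher after isoproterenol, and Cenpf and Mki67 the reverse. In Set7KO saline 2 these genes were at 1.24 (E2f1), 0.199 (Mybl2), 12.8 (Cenpf) and 3.09 CPM (Mki67).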

How the results depend on the processing

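No setting that was run turned the sign of a class median for isoproterenol against saline averaged over genotypes or in WT. With the clock covariate, the averaged medians were -0.20 (S phase) and -0.97 (mitotic). In that fit 11 genes were lower at an unadjusted p under 0.05, beside 3.65% of all genes. In Set7KO the medians were -0.02 and -0.55 with 4 lower, beside 9.57% of all genes. Members past the adjusted threshold, with the share of all genes, numbered 10 (0.547%) without a filter and 11 (1.42%) with DESeq2 for the averaged comparison. In WT they were 11 (5.2%), 11 (15.2%) and, fitted on 2 groups only, 16 (29.7%), of which 1 was higher. In Set7KO they were 1 (0.107%) and 1 (0.573%), and for the interaction 2 (5.80%) and 1 (12.9%). The S phase median in WT was -0.38 without a filter and -0.40 with 1 CPM in 2 libraries. With GC and length offsets the S phase median was -0.10 for isoproterenol in Set7KO and -0.33 for Set7KO against WT after saline. Leaving out Set7KO saline 1 as well, these were 0.022 and -0.49, and the mitotic medians -0.73 and -0.81. The interaction medians were then 0.60 (S phase) and 0.98 (mitotic). Leaving out 1 library at a time gave, for members past the adjusted threshold, 0 to 2 (averaged), 0 to 16 (WT), 0 to 2 (Set7KO), 0 to 1 (Set7KO against WT after saline) and 0 to 6 (interaction). The last 3 maxima and the 16 in WT came without Set7KO saline 1, where 2.66%, 5.64%, 31.6% and 20.1% of all genes passed. Counts lower were 18 to 29 (averaged), 11 to 25 (WT) and 9 to 20 (Set7KO). S phase medians ran from -0.54 to -0.23 (averaged), -0.70 to -0.40 (WT), -0.54 to -0.20 (Set7KO), -0.31 to 0.12 (Set7KO against WT after saline) and 0.06 to 0.48 (interaction). Mitotic medians ran from -1.84 to -1.29 (averaged), -2.05 to -1.07 (WT), -0.42 to 0.57 (Set7KO against WT after saline) and -0.32 to 0.66 (interaction). Kif23 ran from -4.49 to 1.49, and was 1.34 with the clock covariate. The cause of these shifts was not tested. At 3 counts a library, levels under 0.0598 to 0.112 CPM could not be told from 0. No paired analysis was possible because the labels give the groups no shared replicate numbers.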

Other observations

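Among the S phase genes, Ccne2 had counts in 3 libraries only, 16 and 8 in the WT isoproterenol libraries and 11 in Set7KO saline 2. Its exons are 36.3% GC, the lowest of the 26 S phase genes (median 50%). Rrm1 (43.3% GC) was also highest in these 3 libraries, at 16.3, 16.9 and 17.9 CPM, and so was Cenpf (43.3% GC), at 5.196, 4.68 and 12.8 CPM. Prc1 (43.3% GC) and Top2a (43.4% GC) were not: in these libraries they were at 0.545, 0.289 and 1.06 CPM and at 0.386, 0.346 and 1.42 CPM. Both had their highest level in other saline libraries. A link of these levels with GC was not tested. Gins2, part of the replicative helicase, differed most between replicates of the Set7KO isoproterenol group among the licensing genes, at 1.39 and 12.4 CPM, and was at 4.94 and 11.6 CPM in Set7KO saline.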
